A study of Homo sapiens with 24 samples.

Results

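FAM65B, HTR2A and SYT8 are 3 protein-coding genes of the 57820 genes counted in 24 RNA-seq libraries, and their rows were found by gene name. They were chosen by their measured treatment differences: a strong fall in transcript level after mocetinostat. For this reason their own differences between treated and untreated cells are given below as a description, without a test. Mocetinostat is an inhibitor of class I histone deacetylases (HDACs). The cells were U2OS, a human osteosarcoma line, and AID-DIvA, a derivative of U2OS that carries a vector for the restriction enzyme AsiSI; the methods mention no induction of the enzyme for RNA sequencing. Both were studied as wild type (WT) and after knockout of ID3 (ID3-KO), and the sources do not say how many knockout clones were used. Each of the 8 groups had 3 biological replicates. AID-DIvA cells, WT and ID3-KO, were either untreated or kept for 24 h in mocetinostat and then for another 24 h in medium without it (after recovery). U2OS cells, WT and ID3-KO, were either untreated or treated for 24 h; that these were collected before recovery was inferred from the labels and the methods. The cell line and the stage of collection therefore coincide and cannot be told apart. The methods give no dose for these cultures. For the AID-DIvA libraries, titles and treatment entries of the labels name opposite treatments; the titles were taken as correct.

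HDACs remove acetyl groups from histones and other proteins, and blocking them changes the transcription of many genes in both directions. ID3 is an inhibitor of DNA binding: it pairs with E proteins and keeps them from E-boxes, short DNA motifs of the form CANNTG. FAM65B, now named RIPOR2, binds the small GTPase RHOA and limits its activity, and it is known from T cells, myoblasts and the stereocilia of hair cells. HTR2A is the serotonin 2A receptor, which signals through Gq proteins and phospholipase C and is known from cortical neurons, platelets and vascular smooth muscle. SYT8 belongs to the synaptotagmins, membrane proteins with paired C2 domains that take part in the fusion of vesicles.

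In hg19/GRCh37, FAM65B (ENSG00000111913.11) lies on the minus strand at chr6:24797601-25042238, with 7697 bases of exon. HTR2A (ENSG00000102468.6) lies on the minus strand at chr13:47405685-47471169, with 5392 bases of exon. SYT8 (ENSG00000149043.12) lies on the plus strand at chr11:1848709-1858751, with 4854 bases of exon. RefSeq promoter windows of 300 bases, 250 before the transcription start and 50 from it on, were at hand for 2 of the 3 genes: 5 windows for FAM65B and 2 for HTR2A (build GRCh38.p14). Because ID3 acts on factors that bind E-boxes, the windows were searched for CAGCTG and CACCTG on both strands. These motifs do not overlap each other, and they occur in 17.9% and 20.6% of 35116 human promoter windows of that length. The 3 windows with CAGCTG are shown 5′ to 3′ on the strand of the gene, here the minus strand, with CAGCTG and CACCTG in capitals. The first lies at chr6:24910999-24911298, the second at chr6:25042119-25042418 and the third at chr13:46898033-46898332.
FAM65B inner promoter: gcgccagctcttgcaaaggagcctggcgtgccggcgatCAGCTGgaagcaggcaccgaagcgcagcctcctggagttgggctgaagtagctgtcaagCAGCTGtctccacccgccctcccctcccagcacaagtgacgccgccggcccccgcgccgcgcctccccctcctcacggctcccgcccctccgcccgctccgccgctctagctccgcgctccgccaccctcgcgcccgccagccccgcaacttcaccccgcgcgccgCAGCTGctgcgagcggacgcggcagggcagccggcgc
FAM65B outer promoter: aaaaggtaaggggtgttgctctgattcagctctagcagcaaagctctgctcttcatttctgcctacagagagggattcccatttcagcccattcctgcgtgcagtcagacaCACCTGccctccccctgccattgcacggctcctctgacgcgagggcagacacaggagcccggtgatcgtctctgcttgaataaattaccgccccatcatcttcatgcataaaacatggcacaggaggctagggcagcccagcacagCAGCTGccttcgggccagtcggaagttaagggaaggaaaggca
HTR2A promoter: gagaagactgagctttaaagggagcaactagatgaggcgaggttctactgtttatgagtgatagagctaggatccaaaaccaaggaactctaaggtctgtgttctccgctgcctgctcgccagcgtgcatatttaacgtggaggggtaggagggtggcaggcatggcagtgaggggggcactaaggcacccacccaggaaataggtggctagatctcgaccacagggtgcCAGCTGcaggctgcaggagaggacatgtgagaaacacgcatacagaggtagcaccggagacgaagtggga

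Of the 7 windows of both genes, 3 held CAGCTG, 3 held CACCTG and 2 held neither: 1 of FAM65B and the second of HTR2A. The inner FAM65B window held CAGCTG 3 times, and its GC content was 75.0%, against a median of 58.7% over all windows. The other 4 FAM65B windows lay below that median, at 48.3% to 56.3%. The outer FAM65B window held 1 CAGCTG and 1 CACCTG. The HTR2A window held 1 CAGCTG, which begins 20 bases before the transcription start. These matches describe the letters of the windows and do not say whether a factor was bound there. The counts do not separate the transcripts that begin at the different FAM65B starts.

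Total counts per library lay between 37878751 and 76906266. Library-scaled levels are given in CPM, counts scaled to library size with edgeR's TMM factors over the 24 libraries. ID3 itself was lower in every ID3-KO library than in every WT library of the same cells and treatment, with group means of 30.6 to 64.8 CPM in ID3-KO and 50.4 to 118.8 CPM in WT cells. Among markers of the osteoblast lineage, COL1A1, SPARC, RUNX2 and SPP1 were at or above 12.5 CPM in every group, whereas SP7, BGLAP and IBSP stayed below 0.6 CPM. One library stood apart: replicate 1 of untreated WT U2OS cells differed from replicates 2 and 3 by a chi-square of 102.9 and 91.1 per gene, against 4.32 between those replicates and at most 27.3 for the replicate pairs of the other groups. Where leaving it out changed a call or a count, both values are given. The 3 genes were low in abundance, with 840 to 2282 counts each over the 24 libraries, so counting error adds to the spread between replicates. Of the counts of FAM65B, 99.7% came from the strand of the gene, and for HTR2A and SYT8 100.0% did.

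FAM65B reached its highest level in untreated ID3-KO AID-DIvA cells and its lowest levels in AID-DIvA cells after treatment and recovery. In AID-DIvA cells before treatment, the WT libraries had 91, 115 and 167 counts (2.15 ± 0.429 CPM, SD, n = 3). The untreated ID3-KO libraries had 211, 281 and 209 counts (3.80 ± 0.164 CPM, SD, n = 3). Every untreated ID3-KO library was above every untreated WT library. After treatment and recovery, FAM65B stood at 11, 17 and 30 counts in WT cells (0.383 ± 0.173 CPM, SD, n = 3). In ID3-KO cells it stood at 15, 15 and 11 counts (0.298 ± 0.113 CPM, SD, n = 3). The treated libraries of both genotypes overlapped and lay below all untreated ones.

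In U2OS cells, the untreated and treated libraries overlapped for FAM65B in WT but not in ID3-KO cells. The untreated WT libraries had 144, 122 and 81 counts (1.81 ± 0.366 CPM, SD, n = 3), and the treated ones 77, 79 and 96 counts (1.34 ± 0.205 CPM, SD, n = 3). These groups overlapped, at 1.54 CPM in the lowest untreated and 1.57 CPM in the highest treated library. Without the untreated replicate that stood apart, the untreated mean was 1.61 CPM. The untreated ID3-KO libraries had 128, 126 and 134 counts (2.33 ± 0.185 CPM, SD, n = 3), and the treated ones 39, 37 and 46 counts (0.677 ± 0.0201 CPM, SD, n = 3). Here every treated library lay far below every untreated library. In the order of the 8 groups, untreated ID3-KO U2OS, untreated WT AID-DIvA, untreated WT U2OS and treated WT U2OS cells each overlapped with their neighbour, whereas untreated ID3-KO AID-DIvA cells stood alone at the top.

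HTR2A was most abundant in untreated WT U2OS cells, with 203, 297 and 162 counts (3.43 ± 0.569 CPM, SD, n = 3). Untreated ID3-KO U2OS cells had 49, 69 and 67 counts (1.10 ± 0.133 CPM, SD, n = 3). The WT libraries were all above the ID3-KO libraries. After 24 h of treatment, 5, 9 and 10 counts remained in WT cells (0.129 ± 0.0511 CPM, SD, n = 3) and 3, 7 and 8 counts in ID3-KO cells (0.0999 ± 0.0430 CPM, SD, n = 3). The treated genotypes overlapped, and at so few counts a difference between WT and ID3-KO cells was not detectable after treatment.

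In AID-DIvA cells, untreated WT libraries had 65, 60 and 68 counts of HTR2A (1.14 ± 0.152 CPM, SD, n = 3). Untreated ID3-KO libraries had 27, 50 and 29 counts (0.565 ± 0.111 CPM, SD, n = 3). Again no ID3-KO library reached the lowest WT library. After treatment and recovery, the WT libraries had 16, 8 and 9 counts (0.217 ± 0.0732 CPM, SD, n = 3) and the ID3-KO libraries 3, 15 and 8 counts (0.162 ± 0.0712 CPM, SD, n = 3). The 4 treated groups formed an unbroken chain of overlapping neighbours at the bottom of the order. Untreated WT AID-DIvA and untreated ID3-KO U2OS cells also overlapped.

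SYT8 was highest in untreated WT U2OS cells, with 150, 169 and 91 counts (2.12 ± 0.347 CPM, SD, n = 3). Untreated ID3-KO U2OS cells had 54, 51 and 62 counts (1.004 ± 0.128 CPM, SD, n = 3), without overlap. Treatment left 3, 1 and 0 counts in the WT libraries (0.0219 ± 0.0230 CPM, SD, n = 3) and 2, 3 and 2 counts in the ID3-KO libraries (0.0396 ± 0.0134 CPM, SD, n = 3). At 24 h SYT8 was thus close to the limit of detection in U2OS cells of both genotypes.

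In AID-DIvA cells, SYT8 had 31, 33 and 48 counts in untreated WT libraries (0.651 ± 0.0984 CPM, SD, n = 3). It had 29, 42 and 36 counts in untreated ID3-KO libraries (0.584 ± 0.0913 CPM, SD, n = 3). These groups overlapped. After treatment and recovery, 4, 7 and 6 counts were found in WT libraries (0.116 ± 0.0432 CPM, SD, n = 3) and 3, 9 and 4 counts in ID3-KO libraries (0.103 ± 0.0287 CPM, SD, n = 3). Both treated AID-DIvA groups lay above both treated U2OS groups, although the untreated AID-DIvA groups lay below the untreated U2OS groups.

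**Figure D1:**
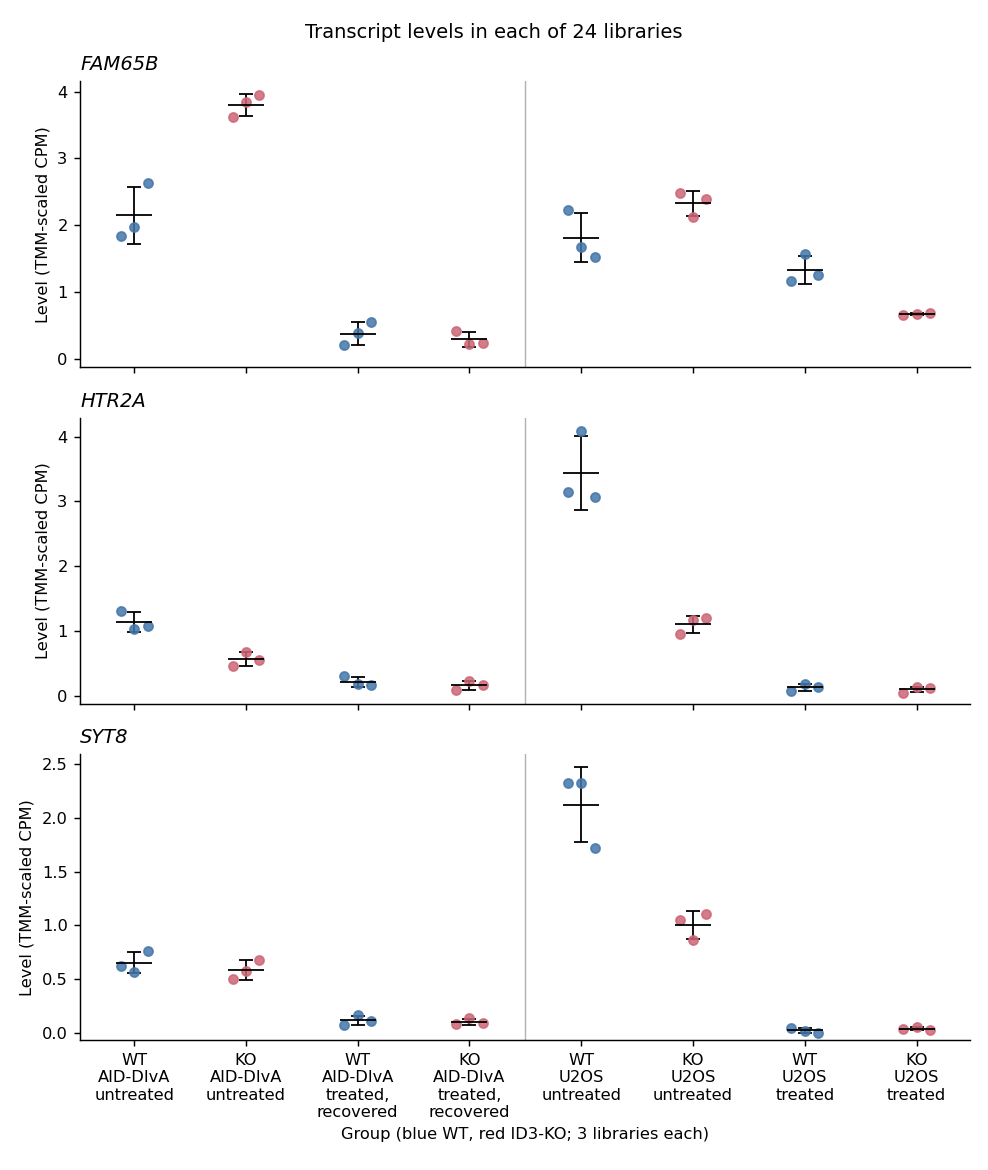
Transcript level of FAM65B, HTR2A and SYT8 (vertical axis, TMM-scaled CPM, linear) in each of the 8 groups (horizontal axis). Points are libraries, 3 per group, blue for WT and red for ID3-KO; black bars are the mean and SD. HTR2A and SYT8 peak in untreated WT U2OS cells at means of 3.43 and 2.12 CPM, and FAM65B peaks in untreated ID3-KO AID-DIvA cells at 3.80 CPM.

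The sizes of the decreases are given for description, since they served to choose the genes. Percentages are the treated share of the untreated level in summed, scaled counts, with 95% exact binomial intervals that cover counting error only. In WT AID-DIvA cells after recovery the 3 genes kept nearly equal shares. FAM65B kept 17.6% (13.1 to 23.3), HTR2A 19.3% (13.0 to 28.1) and SYT8 17.2% (9.66 to 28.8). The log2 differences were -2.48 (SE 0.26), -2.35 (SE 0.25) and -2.50 (SE 0.31). All 3 were among the 34 genes with the lowest log2 differences of 20289 tested; 2.52% of all genes were called lower in this comparison (edgeR, adjusted p below 0.05 and a log2 difference below -1).

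In ID3-KO AID-DIvA cells after recovery the shares were further apart. FAM65B kept 7.31% (5.20 to 10.02), with a log2 difference of -3.75 (SE 0.18), the fifth lowest of 20362 genes. HTR2A kept 30.7% (19.2 to 47.5), with a log2 difference of -1.69 (SE 0.32). SYT8 kept 18.7% (10.3 to 31.8), with a log2 difference of -2.40 (SE 0.31). By the same limits, 2.56% of all genes were called lower. FAM65B started from a higher level and HTR2A from a lower level in ID3-KO than in WT cells, while both ended at levels that overlapped with those of WT cells.

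In U2OS cells before recovery the 3 genes differed widely. In WT cells, FAM65B kept 71.9% (60.9 to 84.8), with a log2 difference of -0.44 (SE 0.20), which placed it at 4824 of 21797 genes. HTR2A kept 3.59% (2.28 to 5.39), with a log2 difference of -4.74 (SE 0.27). SYT8 kept 0.966% (0.262 to 2.49), with a log2 difference of -6.53 (SE 0.47), which rests on 4 counts in all treated libraries. Without the untreated replicate that stood apart, the log2 differences were -0.28, -4.82 and -6.48 for FAM65B, HTR2A and SYT8. The name of a strongly lowered gene thus does not apply to FAM65B in WT U2OS cells at 24 h, whereas SYT8 and HTR2A held the second and the fourth lowest place; 5.06% of all genes were called lower.

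In ID3-KO U2OS cells, FAM65B kept 29.1% (23.6 to 35.8), with a log2 difference of -1.77 (SE 0.16). HTR2A kept 9.02% (5.23 to 14.7), with a log2 difference of -3.43 (SE 0.32). SYT8 kept 3.88% (1.54 to 8.18), with a log2 difference of -4.61 (SE 0.38). By the same limits, 5.77% of all genes were called lower. Side by side, FAM65B kept smaller shares after recovery in AID-DIvA cells than before recovery in U2OS cells, while HTR2A and SYT8 kept larger ones; line and stage coincide, so these orders cannot be assigned to the one or the other. Fewer cells with a transcript and less RNA per cell cannot be told apart in these bulk libraries.

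**Figure D2:**
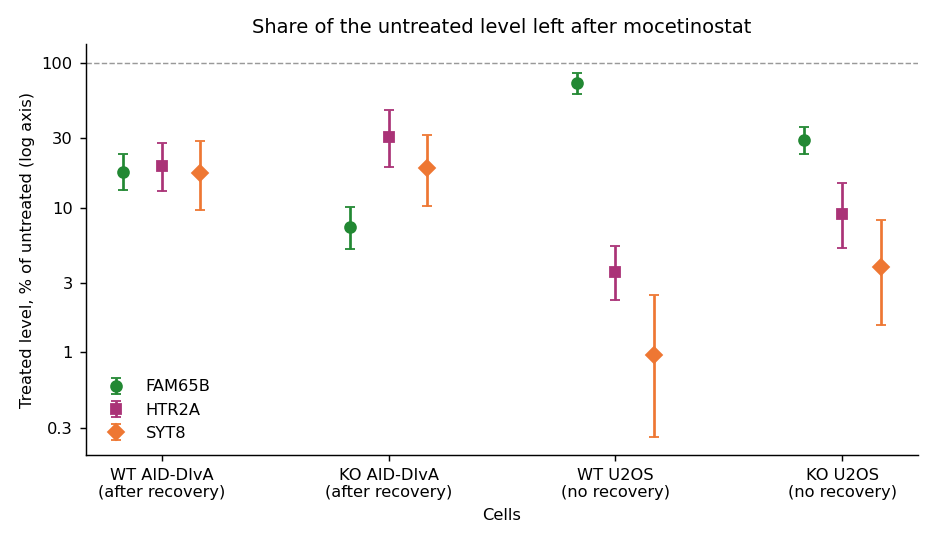
Treated level as a percentage of the untreated level (vertical axis, log scale) for FAM65B (circles), HTR2A (squares) and SYT8 (diamonds) in the 4 pairs of groups (horizontal axis). Bars are 95% counting intervals and the dashed line is 100%. The shares lie between 7.31% and 30.7% in AID-DIvA cells after recovery and spread from 0.966% to 71.9% in U2OS cells before recovery.

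The contrasts between genotypes were not used to choose the genes, although they share libraries with the treatment contrasts. The choice favours genes that are high in untreated libraries. The same libraries enter these contrasts and those between the untreated lines below, so their adjusted p-values are not independent of the choice. They ask whether loss of ID3 goes with other levels of the 3 genes at the same treatment. Adjusted p-values come from the quasi-likelihood test of edgeR (Benjamini-Hochberg, all genes tested), and calls needed both an adjusted p below 0.05 and a log2 difference beyond 1. HTR2A was lower in untreated ID3-KO than in untreated WT cells of both lines. In AID-DIvA cells the fold was 2.01 (log2 difference -1.004, SE 0.19, adjusted p = 0.00058 from edgeR). In U2OS cells the fold was 3.12 (log2 difference -1.64, SE 0.17, adjusted p = 0.0011 from edgeR), and without the WT replicate that stood apart the log2 difference was -1.71. HTR2A was thus called in both contrasts, in which 4.58% and 4.26% of all genes were called. In AID-DIvA cells its size sat at the limit of 1: without WT replicate 1, ID3-KO replicate 1 or ID3-KO replicate 3 the log2 difference was -0.90, -0.87 or -0.99, with adjusted p-values still below 0.05.

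SYT8 was lower in untreated ID3-KO than in untreated WT U2OS cells by a fold of 2.13 (log2 difference -1.09, SE 0.19, adjusted p = 0.0082 from edgeR). This call rested on 1 library: without ID3-KO replicate 2 the log2 difference was -0.98 and the adjusted p 0.0501. Without the WT replicate that stood apart it was -1.03, with an adjusted p of 1.8e-05. In untreated AID-DIvA cells the difference in SYT8 did not pass the test (log2 difference -0.19, 95% interval -0.63 to 0.25, adjusted p = 0.51 from edgeR). SYT8 and HTR2A had too few counts for the test between genotypes after treatment, in either line.

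FAM65B was higher in ID3-KO than in WT AID-DIvA cells before treatment, by a fold of 1.72 (log2 difference 0.79, SE 0.12, adjusted p = 0.00011 from edgeR), a difference below the size limit for a call. In untreated U2OS cells the log2 difference was 0.35 (95% interval -0.05 to 0.76, adjusted p = 0.23 from edgeR). There 1 library decided the test, since without WT replicate 1 the log2 difference was 0.53 and the adjusted p 0.0073. After treatment the sign was the opposite in U2OS cells, where FAM65B was lower in ID3-KO cells by a fold of 1.95 (log2 difference -0.96, SE 0.20, adjusted p = 0.00024 from edgeR) without overlap. After treatment and recovery in AID-DIvA cells the log2 difference was -0.46 (95% interval -1.34 to 0.42, adjusted p = 0.46 from edgeR). FAM65B was therefore called in none of the 4 genotype contrasts with the limit on size, and passed an adjusted p below 0.05 in 2 of them. In treated U2OS cells its size lay close to the limit, and without WT replicate 1 or 3 the log2 difference was -1.05 or -1.01, which would be a call. In these contrasts 4.76% and 3.49% of all genes were called after treatment in AID-DIvA and U2OS cells.

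Whether the genotype difference of untreated cells was unlike in U2OS and AID-DIvA cells was tested as an interaction over the 12 untreated libraries. None of the 3 genes passed, and 1% of all genes did (215 genes, adjusted p below 0.05). Without replicate 1 of untreated WT U2OS cells, 1663 genes passed. The differences of the log2 differences, U2OS minus AID-DIvA, were -0.43 for FAM65B (95% interval -0.92 to 0.07), -0.62 for HTR2A (-1.18 to -0.05) and -0.89 for SYT8 (-1.49 to -0.29). The adjusted p-values from edgeR were 0.52, 0.38 and 0.20. Without replicate 1 of untreated WT U2OS cells they were 0.45, 0.097 and 0.063. The single intervals of HTR2A and SYT8 do not include 0, so a difference between the lines is not shown and equal effects are not shown either.

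**Figure D3:**
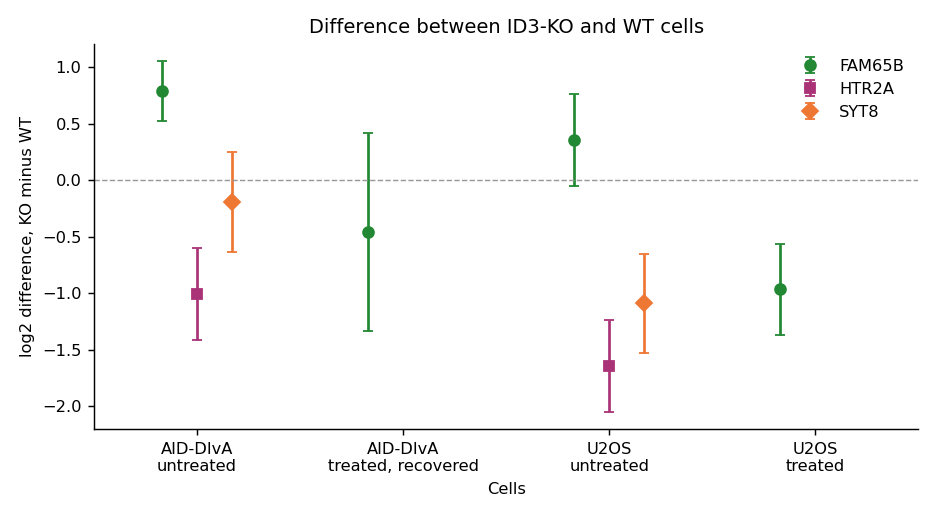
log2 difference of ID3-KO minus WT cells (vertical axis) for FAM65B (circles), HTR2A (squares) and SYT8 (diamonds) in the 4 pairs of groups (horizontal axis). Bars are 95% intervals from edgeR's fit; HTR2A and SYT8 had too few counts to be tested in treated cells. HTR2A lies at -1.004 and -1.64 in untreated cells, and FAM65B moves from 0.79 in untreated AID-DIvA to -0.96 in treated U2OS cells.

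Between the untreated lines, HTR2A and SYT8 were higher in U2OS than in AID-DIvA cells in both genotypes. In WT cells the folds were 3.01 for HTR2A (log2 difference 1.59, SE 0.17, adjusted p = 0.0018 from edgeR) and 3.24 for SYT8 (1.70, SE 0.20, adjusted p = 0.0021 from edgeR). Both were called, as were 3.19% of all genes. Without the WT U2OS replicate that stood apart the log2 differences were 1.66 and 1.63. In ID3-KO cells the folds were 1.96 for HTR2A (log2 difference 0.97, SE 0.20, adjusted p = 0.00082 from edgeR) and 1.75 for SYT8 (0.80, SE 0.20, adjusted p = 0.0035 from edgeR). Neither reached the size limit in ID3-KO cells, where 1.51% of all genes were called. HTR2A passed it, at 1.13 or 1.06, without ID3-KO AID-DIvA replicate 2 or ID3-KO U2OS replicate 1. The change of this line difference with genotype is the interaction given above, which did not pass for either gene.

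FAM65B went the other way between the lines. In ID3-KO cells it was lower in U2OS than in AID-DIvA cells by a fold of 1.61 (log2 difference -0.69, SE 0.11, adjusted p = 7.8e-05 from edgeR). In WT cells the log2 difference was -0.26 (95% interval -0.74 to 0.23, adjusted p = 0.40 from edgeR). Without replicate 1 of untreated WT U2OS cells it was -0.44 with an adjusted p of 0.020. The untreated cells of the lines may also differ in batch, which cannot be told apart from the line.

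The relatives of each gene were examined in the 4 treatment contrasts, where they could be tested. Of the other synaptotagmins, calcium sensors and related proteins of vesicle fusion, 16 were listed. None was called lower in any contrast, and the number that rose was 2 of 14 tested in WT and 3 of 14 in ID3-KO AID-DIvA cells, 7 of 15 in WT and 8 of 15 in ID3-KO U2OS cells. In these contrasts 4.86%, 4.9%, 13.6% and 14.6% of all genes were called higher and 2.52%, 2.56%, 5.06% and 5.77% lower. The median log2 difference of the list was 0.13, 0.11, 0.95 and 1.04, against medians between -0.02 and 0.01 over all genes. Without replicate 1 of untreated WT U2OS cells, 7 of 15 rose in WT U2OS cells.

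SYT7, a calcium sensor of slow release and of lysosome fusion, rose in U2OS cells by 3.002 in WT (SE 0.08, adjusted p = 4.4e-07) and 2.87 in ID3-KO cells (SE 0.06, adjusted p = 1.5e-20; log2 differences and adjusted p from edgeR). SYT5 rose in all 4 contrasts, by log2 differences of 2.51 in WT and 2.73 in ID3-KO AID-DIvA cells and 3.63 and 4.34 in U2OS cells. SYT13 also rose in all 4, by 1.74 and 2.63 in AID-DIvA cells and 2.95 and 4.58 in U2OS cells. SYT4 went from 2 counts in the untreated to 378 in the treated WT U2OS libraries and from 1 to 287 in the ID3-KO libraries. No other synaptotagmin that was called had the sign of SYT8. Below the limit on size, 3 synaptotagmins were lower after treatment at an adjusted p below 0.05 in some of the contrasts. SYT2, a calcium sensor of fast release, was at -0.62 in WT (adjusted p = 3.9e-06 from edgeR) and -0.23 in ID3-KO AID-DIvA cells (adjusted p = 0.021 from edgeR). In U2OS cells SYT2 was higher after treatment, at 0.95 in WT (adjusted p = 0.0035 from edgeR) and 0.66 in ID3-KO cells (adjusted p = 3.4e-11 from edgeR). SYT12 was at -0.28 in ID3-KO AID-DIvA cells and SYT17 at -0.47 in ID3-KO U2OS cells.

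**Figure D4:**
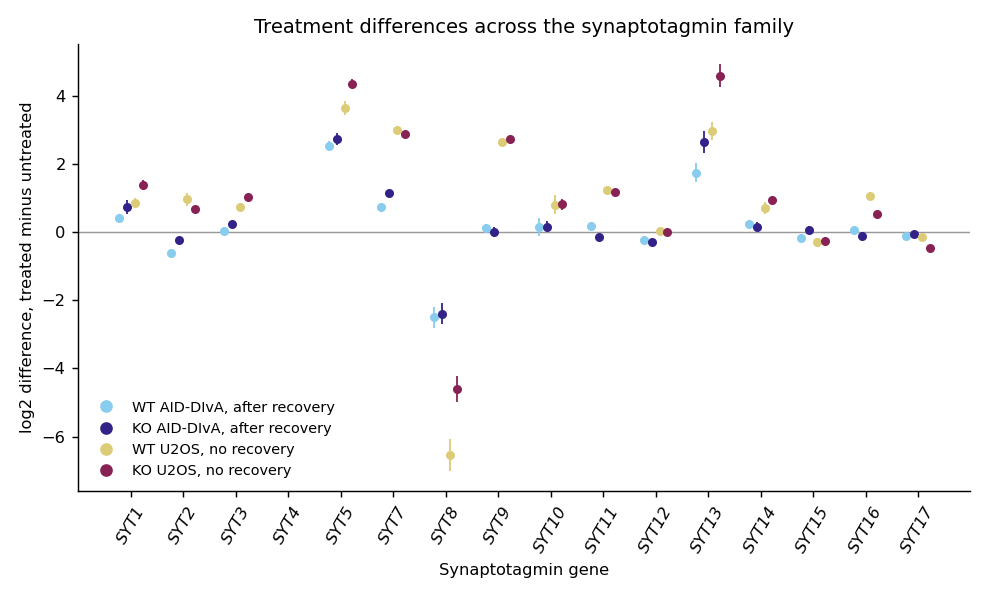
log2 difference of treated minus untreated cells (vertical axis) for the synaptotagmin genes (horizontal axis) in the 4 treatment contrasts, marked by colour. Points are edgeR estimates and bars are SE; genes with 3 or fewer summed counts in a group, such as SYT4 in U2OS cells, have no point. SYT8 lies between -2.40 and -6.53, whereas SYT5 lies between 2.51 and 4.34.

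Markers of neurons, in which many synaptotagmins are known, moved with treatment as well. The summed level of the 5 neuron markers measured (RBFOX3, SNAP25, SYN1, STMN2 and MAP2) was 21.1 to 24.8 CPM in untreated and 129.2 to 135.7 CPM in treated WT U2OS libraries. In ID3-KO U2OS libraries it was 14.0 to 15.7 and 87.2 to 90.4 CPM. In AID-DIvA cells it went from 19.8 to 20.4 CPM to 38.8 to 41.7 CPM in WT and from 16.2 to 17.6 CPM to 33.7 to 35.1 CPM in ID3-KO libraries. None of the 5 was below 1 CPM in a treated group; SYN1 and STMN2 were lowest, with group means down to 0.288 and 0.0597 CPM. Their part in the synaptotagmin result was not tested. The summed level of 9 markers of the osteoblast lineage was lower after treatment. Most of this sum came from COL1A1 and SPARC, with means of 1480 and 1195 CPM over the 24 libraries. The directions of the single markers are not given here. The sum was 3811 to 4150 CPM in untreated and 2415 to 2638 CPM in treated WT U2OS libraries. In ID3-KO U2OS libraries it was 3047 to 3230 and 1982 to 2155 CPM. In AID-DIvA cells it went from 2694 to 2827 CPM to 1771 to 2240 CPM in WT and from 2960 to 3275 CPM to 2230 to 2373 CPM in ID3-KO libraries. The summed level of 7 leukocyte markers was higher after treatment in AID-DIvA cells, at 5.51 to 6.09 against 2.01 to 2.38 CPM in WT and 4.34 to 5.47 against 0.998 to 1.397 CPM in ID3-KO libraries. In U2OS cells it was 3.83 to 4.11 against 1.69 to 1.997 CPM in WT and 2.46 to 3.06 against 1.497 to 1.65 CPM in ID3-KO libraries. Over the 24 libraries most of this leukocyte sum came from ITGAM, with a mean of 2.35 CPM and group means of 0.555 to 5.26 CPM. The group means of the other leukocyte markers were at most 0.388 CPM, that of CD14. The part of the osteoblast and leukocyte markers in the decreases of the 3 genes was not tested. The summed level of the 6 smooth muscle markers, of interest beside HTR2A, was 73.8 to 94.5 CPM in untreated and 115.0 to 121.6 CPM in treated WT U2OS libraries and 76.9 to 79.9 and 109.1 to 132.3 CPM in ID3-KO U2OS libraries. In AID-DIvA cells the untreated and treated ranges overlapped, at 90.7 to 93.9 and 75.4 to 108.2 CPM in WT and 84.0 to 100.8 and 86.5 to 110.7 CPM in ID3-KO libraries. Most of the smooth muscle sum came from CNN1 and TAGLN, with means of 58.3 and 33.8 CPM over the 24 libraries. The means of MYH11, ACTG2, DES and ACTA2 were 0.124 to 1.86 CPM. Of the 7 leukocyte markers, 6 or 7 were below 1 CPM in every group, and the group means of CD3E and LYZ were at most 0.0198 CPM.

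Among 8 synaptotagmin-like and extended synaptotagmin proteins, SYTL3, an effector of RAB27 in secretion, rose in all 4 contrasts, with log2 differences of 2.45 and 2.27 in WT and ID3-KO AID-DIvA cells and 1.77 and 1.63 in U2OS cells. It alone of the list was called in AID-DIvA cells, where 4.86% (WT) and 4.9% (ID3-KO) of all genes were called higher. In U2OS cells of each genotype 4 rose and 1 fell. Of all genes tested there, 13.6% (WT) and 14.6% (ID3-KO) were called higher and 5.06% and 5.77% lower. The listed gene that fell was SYTL1, a further RAB27 effector, by -1.45 in WT (SE 0.20, adjusted p = 0.00066 from edgeR) and -1.16 in ID3-KO cells (SE 0.19, adjusted p = 1.1e-05 from edgeR). In AID-DIvA cells SYTL1 was at -0.83 in WT (adjusted p = 0.00028 from edgeR), short of the limit on size. In ID3-KO AID-DIvA cells it was at -0.37 (adjusted p = 0.059 from edgeR). SYTL5 and ESYT1 were lower in AID-DIvA cells, at -0.62 and -0.27 in WT and -0.53 and -0.29 in ID3-KO cells. SYTL2 was higher there, at 0.51 in WT and 0.36 in ID3-KO cells, and ESYT3 at 0.47 in ID3-KO cells. Each of these was short of the limit on size but had an adjusted p below 0.05 from edgeR. The median of the list was 0.08, 0.05, 0.77 and 0.76 in the same order of contrasts. Of 11 SNARE proteins, which drive membrane fusion, 1 rose in U2OS cells of each genotype and none fell, beside the same shares of all genes. This was STX1A, at 1.32 in WT and 1.42 in ID3-KO cells. The medians of this list were 0.01 and -0.03 in U2OS cells.

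Of 13 other serotonin receptors, 3 or 4 had enough counts to be tested. HTR3A, the subunit that forms the serotonin-gated ion channel, rose in all 4 contrasts, with log2 differences of 1.30 and 1.56 in WT and ID3-KO AID-DIvA cells and 2.18 and 1.49 in U2OS cells. HTR6 rose in WT U2OS cells, from 2 to 114 counts. HTR2C, a receptor of the same subfamily as HTR2A, was below its untreated level in all 4 contrasts, by -0.74 and -0.97 in AID-DIvA and by -0.51 and -0.84 in U2OS cells. It passed an adjusted p below 0.05 in each (0.0013, 0.00088, 0.031 and 0.00025 from edgeR) but not the limit on size. HTR1D lay between -0.35 and 0.20. No listed receptor was called lower. Over the 4 contrasts 2.52% to 5.77% of all genes were called lower and 4.86% to 14.6% higher. With 3 or 4 receptors tested, such counts say little about the list. The medians of so short a list were 0.03, 0.27, 1.16 and -0.35.

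Of 8 genes that make, carry or break down serotonin, 2 of 6 tested rose in each AID-DIvA contrast, 3 of 7 in WT U2OS and 4 of 7 in ID3-KO U2OS cells, and none fell. Of all genes, 4.86%, 4.9%, 13.6% and 14.6% were called higher and 2.52%, 2.56%, 5.06% and 5.77% lower in the same order. The medians were 0.13, 0.55, 0.93 and 1.14. Below the limit on size, SLC18A2 was at -0.73 in WT (adjusted p = 1.3e-05 from edgeR) and -0.61 in ID3-KO AID-DIvA cells (adjusted p = 0.0042 from edgeR). It was at 0.28 in WT U2OS cells (adjusted p = 0.016 from edgeR). In WT AID-DIvA cells TPH1 was at -0.53 (adjusted p = 0.020 from edgeR) and MAOB at 0.53 (adjusted p = 0.00020 from edgeR). MAOA, which oxidises serotonin, rose by 1.99 in WT (SE 0.06, adjusted p = 4.6e-11 from edgeR) and 1.84 in ID3-KO AID-DIvA cells (SE 0.07, adjusted p = 1.5e-07 from edgeR). In WT U2OS cells MAOA was at 0.93 (adjusted p = 2.7e-05 from edgeR), below the limit on size. In ID3-KO U2OS cells it rose by 1.14 (adjusted p = 5.6e-14 from edgeR). MAOB, a relative of MAOA, rose by 2.57 in WT and 3.65 in ID3-KO U2OS cells. It also rose in ID3-KO AID-DIvA cells, by 1.10 (adjusted p = 0.00012 from edgeR). TPH2, the first enzyme of neuronal serotonin synthesis, went from 1 to 136 counts in WT and from 4 to 70 counts in ID3-KO U2OS cells.

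Of 11 genes of Gq signalling, through which the 2A receptor acts, none was called in AID-DIvA cells. There 4.86% (WT) and 4.9% (ID3-KO) of all genes were called higher and 2.52% and 2.56% lower. In U2OS cells of each genotype 2 rose and 1 fell, where 13.6% (WT) and 14.6% (ID3-KO) of all genes were called higher and 5.06% and 5.77% lower. ITPR1 and ITPR2, receptors that release calcium from stores, rose by 1.91 and 1.67 in WT and by 1.61 and 1.73 in ID3-KO cells. PLCB2, a phospholipase C activated by Gq, fell by 1.19 in WT (SE 0.07, adjusted p = 8.2e-06 from edgeR) and by 1.53 in ID3-KO cells (SE 0.05, adjusted p = 1.4e-17 from edgeR) on the log2 scale. The median of the list was 0.10, 0.14, 0.32 and 0.35. GNAQ and GNA11, which encode the Gq-class alpha subunits, were not called. Below the limit on size, GNAQ was lower in AID-DIvA cells. Its log2 difference was -0.66 in WT (adjusted p = 1.4e-05 from edgeR) and -0.77 in ID3-KO cells (adjusted p = 0.0044 from edgeR). In WT AID-DIvA cells PLCB1 was also lower, at -0.41. PLCB2, ITPR1, ITPR2, ITPR3 and ARRB2 were higher there, at 0.20 to 0.46, each at an adjusted p below 0.05.

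For FAM65B, 17 relatives and partners were listed and all were tested. FAM65A and FAM65C, the other members of its family, were not called in any contrast. FAM65A was above its untreated level in all 4, with log2 differences of 0.51 and 0.55 in AID-DIvA and 0.36 and 0.22 in U2OS cells. None of the 17 was called in AID-DIvA cells. There 4.86% (WT) and 4.9% (ID3-KO) of all genes were called higher and 2.52% and 2.56% lower. For U2OS cells these shares were 13.6% and 14.6% higher and 5.06% and 5.77% lower. In U2OS cells SFN, a 14-3-3 protein, fell by 1.09 in WT (SE 0.18, adjusted p = 0.0016 from edgeR) and by 1.29 in ID3-KO cells (SE 0.05, adjusted p = 2.8e-15 from edgeR) on the log2 scale. Without the untreated WT replicate that stood apart, the log2 difference of SFN in WT cells was -0.84, and DYSF, a membrane repair protein that binds FAM65B, was the gene called lower, at -1.08. RHOB, a small GTPase, rose in ID3-KO U2OS cells by 1.10 (SE 0.06, adjusted p = 1.2e-12 from edgeR), and its log2 difference in WT U2OS cells was 0.80. RHOA, the GTPase that FAM65B limits, lay between -0.18 and 0.05 in the 4 contrasts. HDAC6, a deacetylase outside class I that binds FAM65B, was between -0.57 and -0.29. The medians of the list were -0.10, -0.08, -0.18 and -0.09.

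Genes within 250000 bases were examined to see whether the decreases extended to the surroundings. Near FAM65B, 8 of 33 neighbours had enough counts to be tested, and none was called lower in any contrast. Of all genes, 2.52% and 2.56% were called lower in WT and ID3-KO AID-DIvA cells. In U2OS cells 5.06% and 5.77% were called lower and 13.6% and 14.6% higher. With 8 genes tested, a count of 0 does not set these neighbours apart. On the lower-coordinate side the nearest 3 tested genes were GMNN, C6orf62 and ACOT13, with log2 differences between -0.39 and 0.16. On the other side CMAHP, at 39310 bases, was called higher in ID3-KO U2OS cells at 1.11, and LRRC16A lay between 0.21 and 0.55. KIAA0319 rose by 1.65 in WT and 1.57 in ID3-KO U2OS cells. In AID-DIvA cells KIAA0319 was at -0.44 in WT (adjusted p = 0.0032 from edgeR), short of the limit on size. It was at -0.19 in ID3-KO AID-DIvA cells (adjusted p = 0.38 from edgeR). PPIAP29, a pseudogene on the opposite strand inside FAM65B with 1079 counts in all, was not called; 1 ID3-KO AID-DIvA library after recovery held 167 of its 228 counts in that group.

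Near HTR2A, 2 of 3 neighbours were tested, LRCH1 and ESD, both on the lower-coordinate side. Neither was called, and their log2 differences lay between -0.06 and 0.33. HTR2A-AS1, on the opposite strand within HTR2A, had 0 counts in all libraries.

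Near SYT8, 8 to 13 of 33 neighbours were tested. The number called lower was 0 in both AID-DIvA contrasts, 3 in WT U2OS and 4 in ID3-KO U2OS cells. Of all genes, 2.52% and 2.56% were called lower in WT and ID3-KO AID-DIvA cells and 5.06% and 5.77% in U2OS cells. With 8 and 9 genes tested in AID-DIvA cells, a count of 0 does not set these neighbours apart there. TNNI2, which encodes a troponin of fast skeletal muscle, starts 1468 bases after the end of SYT8 on the same strand. It had 18, 26 and 27 counts in untreated and 0, 0 and 0 in treated WT U2OS libraries. In ID3-KO U2OS libraries it went from 13, 16 and 12 to 0, 0 and 1 counts. Reads that run past the end of SYT8 cannot be told apart from TNNI2 transcripts in these counts. LSP1, a leukocyte-associated actin-binding protein, fell in WT U2OS cells by 1.23 on the log2 scale (SE 0.20, adjusted p = 0.0014 from edgeR), from 5.62 ± 1.28 to 2.39 ± 0.362 CPM (SD, n = 3 each). Its log2 difference in ID3-KO U2OS cells was -0.85. In AID-DIvA cells the log2 differences of LSP1 were -0.76 in WT (adjusted p = 0.00020 from edgeR) and -0.39 in ID3-KO cells (adjusted p = 0.015 from edgeR), both short of the limit on size. TNNI2 had 4, 4 and 7 counts in untreated and 0, 0 and 0 in treated WT AID-DIvA libraries and went from 4, 4 and 4 to 2, 1 and 1 in ID3-KO ones, too few to be tested.

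C11orf89, which lies within the span of LSP1 on the opposite strand, fell in U2OS cells of both genotypes, from 26, 21 and 20 to 9, 7 and 3 counts in WT and from 23, 17 and 15 to 4, 4 and 3 counts in ID3-KO libraries. On the other side of SYT8, CTSD, AC068580.5 and AC068580.6 were not called. Below the limit on size, CTSD was at -0.45 in WT (adjusted p = 0.041 from edgeR) and -0.36 in ID3-KO U2OS cells (adjusted p = 1.4e-06 from edgeR). MRPL23 was at -0.97 in WT (adjusted p = 0.0066 from edgeR) and -0.62 in ID3-KO U2OS cells (adjusted p = 1.2e-09 from edgeR). H19 was higher in these cells, at 0.65 and 0.44. KRTAP5-AS1 and MRPL23-AS1, farther away, fell in ID3-KO U2OS cells by 1.20 and 1.03 on the log2 scale, and KRTAP5-1 rose in WT AID-DIvA cells by 2.02. The median log2 difference of the SYT8 neighbours tested was 0.05 in WT and 0.04 in ID3-KO AID-DIvA cells. In U2OS cells it was -0.45 in WT and -0.49 in ID3-KO cells. Over all genes the medians lay between -0.02 and 0.01. Without replicate 1 of untreated WT U2OS cells, the number of SYT8 neighbours that fell in WT U2OS cells was 3, and their median was -0.25.

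The genes whose levels followed each gene most closely over the 24 libraries were named from 15593 genes with a mean of at least 1 CPM, by Pearson's r of log2(CPM + 0.5). The libraries share the 8 groups, so these values describe likeness of pattern and are given without a test. For FAM65B the closest was NSUN7 (r = 0.944), from 15.8 and 15.9 CPM in untreated WT and ID3-KO AID-DIvA cells to 7.92 and 6.87 CPM after treatment and recovery. CDC25B, UBE2J1, CNTROB and IFT122 followed. For HTR2A the closest was RP11-277P12.20 (r = 0.947), followed by WNT5B, HAPLN1, RP11-863P13.3 and HNMT. For SYT8 the closest was MAGED2 (r = 0.957), followed by WNT5B, RP11-277P12.20, MAGED1 and CKAP4.

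HTR2A and SYT8 thus shared 2 of their 5 closest genes, WNT5B and RP11-277P12.20, and neither shared any with FAM65B. WNT5B, a secreted WNT ligand, had 21.2 CPM in untreated WT and 11.8 CPM in untreated ID3-KO U2OS cells and 1.496 and 1.71 CPM after treatment. In AID-DIvA cells it had 11.9 and 6.74 CPM before and 3.38 and 1.99 CPM after treatment and recovery. HAPLN1, a link protein of the extracellular matrix, had 334.7 and 204.2 CPM in untreated and 90.1 and 66.2 CPM in treated U2OS cells, WT and ID3-KO. The patterns of HTR2A and WNT5B had their highest level in the same group, untreated WT U2OS cells.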

How the data were processed

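RNA was measured in 24 libraries, 3 in each of 8 groups, prepared as stranded total RNA and read in pairs of 100 bases. The authors ran the Roddy workflow, with STAR alignment to hg19/GRCh37, and deposited featureCounts counts per gene, neither normalized nor pooled, for 57820 genes. Counts from either strand were used, with a total of 37878751 to 76906266 per library. Below about 1 CPM, few counts limit the precision.

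Each contrast was fitted on its own 6 libraries, and the interaction of genotype and line on 12, with edgeR 4.0.16 in R 4.3.3: TMM scaling, its filterByExpr filter, robust quasi-likelihood tests, and p-values adjusted by Benjamini-Hochberg across all genes tested. Levels used TMM factors over 24 libraries. The steps were checked on counts with known changes. Replicates differed beyond sampling noise; same-numbered replicates did not deviate together.

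The genes, lists and tests were chosen with earlier results of these data known. Named were the 3 genes, up to 4 called members per list, the nearest 3 tested neighbours on each side, other called neighbours, and the 5 genes of most like pattern. HTR2C, HTR1D, RHOA, HDAC6, FAM65A, FAM65C, DYSF, GNAQ, GNA11 and PPIAP29 were added after their values were seen. So were PLCB1, ITPR3, ARRB2, SLC18A2, TPH1, MRPL23, H19 and ESYT1. None of these genes was called with all libraries in the fit. SYTL2, SYTL5 and ESYT3, which were called in U2OS cells, were also added after their values were seen. VAMP7 and TUBB3 had 2 rows each and were left out. Alternatives were DESeq2 1.42.0, its size factors, 2 other filters, reverse-strand counts, a replicate block, 1 fit over 24 libraries and leaving out each library. List counts without replicate 1 of untreated WT U2OS cells were added after seeing the data. The SNARE list in AID-DIvA cells is not reported here.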

Additional observations from a re-analysis of the deposited data

Results flagged for a closer look

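FAM65B differed between ID3-KO and WT cells in opposite directions in the untreated AID-DIvA and the treated U2OS libraries. The log2 difference, ID3-KO minus WT, was 0.79 in untreated AID-DIvA cells, where all 3 ID3-KO libraries were above all 3 WT libraries. It was -0.96 in treated U2OS cells, where all 3 ID3-KO libraries were below all 3 WT libraries. The difference between these contrasts was not tested, and they differ in line and in treatment at once.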

How the results depend on the processing

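Of the values recomputed with other tools, filters, scalings, strands or fits, 342 kept direction and side of the adjusted p of 0.05, or stayed within their limits, and 6 moved; none reversed. With the limit on size as well, HTR2A between untreated ID3-KO and WT AID-DIvA cells lost its call in 2 of them, at -0.99 without a filter and -0.99 in 1 fit over 24 libraries. Genes called between untreated ID3-KO and WT U2OS cells were 1426 in 1 fit over 24 libraries, against 878. Between the untreated lines they were 1046 in that fit against 659 in WT cells, and 483 without a filter on low counts against 307 in ID3-KO cells. For the interaction they were 486 with DESeq2 against 215. FAM65B in treated ID3-KO U2OS cells was 0.721 CPM on library totals, against 0.677.

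With the replicate number as a block, the interaction called 138 genes. Samples of the same number did not deviate together (correlations from -0.12 to 0.05), and the block changed the call (both limits) of none of the 3 genes in the contrasts tested.

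With each library left out in turn, 222 values kept their verdict, 39 moved, 2 gained and 1 lost the test; with the limit on size, 4 calls of the 3 genes were gained and 4 lost. Log2 differences with treatment ranged, in WT AID-DIvA cells, from -2.88 to -2.16 (FAM65B), -2.68 to -2.17 (HTR2A) and -2.78 to -2.27 (SYT8). In ID3-KO AID-DIvA cells they ranged from -4.00 to -3.56, -2.07 to -1.45 and -2.73 to -2.27. In WT U2OS cells HTR2A ranged from -4.99 to -4.48 and SYT8 from -7.74 to -5.86, the lowest without treated replicate 1. In ID3-KO U2OS cells they ranged from -3.62 to -3.12 and -4.88 to -4.44. Between untreated ID3-KO and WT U2OS cells FAM65B ranged from 0.25 to 0.53 and SYT8 from -1.22 to -0.98, with 563 (without ID3-KO replicate 1) to 1180 genes called (without WT replicate 1). Between untreated WT lines FAM65B ranged from -0.44 to -0.084, with 305 (without AID-DIvA replicate 3) to 921 genes called (without U2OS replicate 1). The interaction called 89 to 1663 genes, the most without replicate 1 of untreated WT U2OS cells. The causes were not tested. Depth limits HTR2A and SYT8 in treated cells, where libraries held 0 to 16 counts.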
